A study of Sus scrofa with 6 samples.

Results

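Nuclear copies of mitochondrial sequence made up 699 of the 37783 distinct windows (1.85%) in the small-RNA lists of piglet duodenum. A window is a stretch of 201 bases that the lists give with its chromosome, its position, its sequence and a whole-number count. A window was a nuclear copy when its chromosome was not chrM and blastn (word size 11, no dust filter, e-value at most 1e-04) matched it to the mitochondrial record in the same lists. The match had to have at least 80% identity over at least 50 bases and to reach past base 95 of the window. The mitochondrial record, listed whole in 4 of the 6 libraries, has 16769 bases. The 407 distinct windows on chrM itself were the comparison, and the other windows are nuclear sequence without such a match.

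Mitochondrial DNA is a small circular genome that encodes 2 rRNAs, 13 proteins of the respiratory chain and ATP synthase, and the tRNAs that punctuate these genes. It is transcribed as long RNAs from both strands that are cut at the tRNAs, and a control region without genes holds the promoters. Over evolution, pieces of it were inserted into nuclear chromosomes, where they have no known mitochondrial function and diverge from the original. A short read from one of these places can match the other, so sequence identity decides where a read can be placed.

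The study compared duodenum of Sutai piglets aged 28 days with the AA or the GG genotype at position M307 of FUT1, a fucosyltransferase gene. Per the labels AA piglets resist enterotoxigenic Escherichia coli F18 and GG piglets are sensitive to it, and all were housed alike. The AA group had 2 piglets (524 and 2129) and the GG group 3 (512, 2134 and 2383), with piglet 512 sequenced in 2 runs. The labels name 2 full-sib pairs, 524 with 512 and 2129 with 2134, while the AA sib of piglet 2383 failed in sequencing and was not analysed here. The genotypes are natural ones in whole tissue, so fewer cells of a type and less RNA per cell cannot be told apart. No table of markers could be applied to the lists, so the tissue label was not checked.

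Listed counts totalled between 42354 (piglet 2383) and 192861 (piglet 2134) per library, the lowest listed count was 5, and a window under that is not listed. Piglets 2134 and 2383 stood apart from the other 3 in their mitochondrial counts, both nuclear and chrM, and each group result below is given with that in view. A count cannot show whether its reads came from the nuclear copy or from mitochondrial RNA placed there. Coordinates are those of the lists, whose genome build is not given in the sources used here, and no annotation of nuclear genes at these places was used.

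Sequences from 4 of the copies are shown first, with identities from 100% down to 88.4%. Copies of lower identity are not printed. The window with the highest count lay on chromosome 9 at chr9:3808074-3808274, and its 201 bases were identical to chrM:5050-5250. It is printed once, with capitals marking the arms of an inverted repeat of 12 bases, ACTTCTCCCGCC and GGCGGGAGAAGT. The stretch lies among the tRNA genes between ND2 and COX1, the cluster that in vertebrates also holds the origin of light-strand replication.
chr9:3808074-3808274: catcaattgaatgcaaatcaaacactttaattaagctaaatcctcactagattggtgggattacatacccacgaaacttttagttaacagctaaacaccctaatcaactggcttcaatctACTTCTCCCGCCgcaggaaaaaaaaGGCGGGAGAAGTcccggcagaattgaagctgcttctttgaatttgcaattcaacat

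The next pairs give a nuclear window above the stretch of the record it matches, with the differing bases in capitals. The first came from the long copy on chromosome 2, at chr2:104179388-104179588, and matched the tRNA genes after CYTB at 93.0% identity. It had 14 differing positions, 7 before window base 107, 0 in bases 107 to 121 and 7 after.
chr2:104179388-104179588: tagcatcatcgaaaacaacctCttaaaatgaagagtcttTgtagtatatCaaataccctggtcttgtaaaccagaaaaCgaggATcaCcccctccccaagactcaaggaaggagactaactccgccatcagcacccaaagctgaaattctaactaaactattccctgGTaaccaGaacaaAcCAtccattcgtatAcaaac
chrM:15270-15468: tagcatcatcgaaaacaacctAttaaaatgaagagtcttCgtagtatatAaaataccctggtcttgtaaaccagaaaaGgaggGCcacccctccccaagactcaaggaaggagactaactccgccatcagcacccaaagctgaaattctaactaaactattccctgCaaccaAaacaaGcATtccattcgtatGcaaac

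The chromosome 1 copy matched the tRNA genes between ND1 and ND2 in the opposite direction, so the record is given as its minus strand. The matched 140 bases had 2 differences, 1 before base 107 and 1 after base 121.
chr1:94518943-94519082: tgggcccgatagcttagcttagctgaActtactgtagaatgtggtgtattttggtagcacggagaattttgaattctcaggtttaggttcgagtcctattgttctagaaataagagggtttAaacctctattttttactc
chrM:3734-3873 minus strand: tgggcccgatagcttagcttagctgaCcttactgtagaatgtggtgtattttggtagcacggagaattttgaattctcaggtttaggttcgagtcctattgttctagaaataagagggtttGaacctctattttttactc

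The chromosome X copy had the lowest identity of the regions listed in every piglet, and its window matched at 88.4%. It differed at 15 positions and by 6 gap bases, and 0 of the 21 differences fell in bases 107 to 121.
chrX:20898715-20898889: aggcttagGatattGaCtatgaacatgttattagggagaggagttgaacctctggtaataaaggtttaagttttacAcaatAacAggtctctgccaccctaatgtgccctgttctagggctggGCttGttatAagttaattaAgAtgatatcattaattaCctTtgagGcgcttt
chrM:2591-2771 minus strand: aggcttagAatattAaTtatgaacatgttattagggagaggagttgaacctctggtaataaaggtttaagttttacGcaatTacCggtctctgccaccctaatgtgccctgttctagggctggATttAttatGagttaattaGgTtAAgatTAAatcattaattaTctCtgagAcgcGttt

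Over all 699 windows the identity to the record ranged from 80.23% to 100%, with quartiles of 89.35% and 94.89% and a median of 92.0%. The median match was 200 bases long, and 288 windows matched over their full length. Identity was 80 to 85% in 70 windows, 85 to 90% in 145, 90 to 95% in 313, 95 to 98% in 116 and 98 to 100% in 55. Of these 55, 6 had 100% identity over the matched bases, which in some were only 56 or 116 bases of the window. The copies ran in the direction of the record in 447 windows and in the opposite direction in 252. Just inside the threshold were 7 windows between 80% and 81% identity. Of 122 nuclear windows with a weaker match, 26 fell short in identity, the nearest at 79.87%, and 96 in length, the nearest at 49 bases.

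Differences from the record were not spread evenly along the window. The low end of the reads was inferred from the lists to lie near window base 101. In bases 1 to 80, 8.85% of aligned bases differed from the record, and in bases 150 to 201, 8.5% did. At base 100, just before the reads, 21.04% of windows differed. In bases 107 to 121, the longest run past the read start with under 4% of windows differing, defined after this profile had been seen, 2.24% differed. The dip was present in copies of either direction, with 2.48% in the same direction and 1.81% in the opposite one. Those 15 bases were identical to the record in 511 of the 699 windows (73.1%), differed once in 138 and more often in 50. Windows of 80 to 85% identity were identical there in 48 of 70, and windows of 98 to 100% in 47 of 55.

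**Figure D1:**
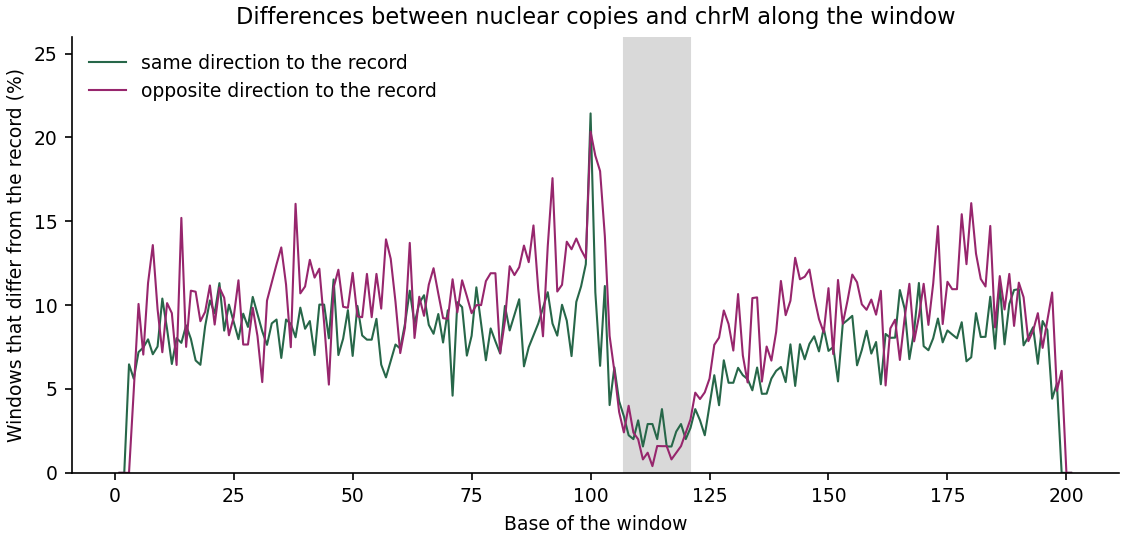
Share of nuclear-copy windows that differ from the mitochondrial record (%) at each base of the 201-base window, for copies in either direction. The line peaks at base 100 with over 20% and falls to about 2% in the grey band, bases 107 to 121, against 8 to 10% in the outer parts.

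Windows identical to the record in bases 107 to 121 held 82.2% of the nuclear-copy count in piglet 524 and 80.6% in piglet 2129. In the GG libraries they held 82.9% and 83.1% in runs 1 and 2 of piglet 512, 85.7% in piglet 2134 and 91.3% in piglet 2383. They made up 75.8%, 74.3%, 75.8%, 76.5%, 79.6% and 82.6% of the nuclear-copy windows in the same order, so their share of the counts was above their share of the windows by less than 10 percentage points in each library. Windows with at least 2 differences there held between 1.9% (piglet 2383) and 6.7% (piglet 2129).

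The 699 windows merged into 145 regions of overlapping windows, and these into 82 colinear copies on 18 chromosomes, of which 21 were a single window. Together they matched 91.79% of the record, and chrM windows covered 90.79%. The longest copy, chr2:104169028-104179623, spanned 10596 bases with 144 windows and a mean identity of 91.73%. It followed the record from the tRNA genes between ND2 and COX1 to those after CYTB, and held on average 20.2% of the nuclear-copy count. A second copy on that chromosome, chr2:83325114-83329906, ran in the opposite direction over 4793 bases from CYTB to ND3 with 79 windows at 91.89% identity, and held 10.52%.

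The chromosome 9 copy, chr9:3807514-3808292, was short, with 21 windows over 779 bases, but at 99.09% identity held 18.71%. Chromosome X carried several diverged copies between positions 20865368 and 21043470, with mean identities from 84.71% to 88.65% among those that were highest in counts. The place on chromosome X at chrX:20893088-20895919, from COX1 to COX3, had the lowest of these identities and was listed in 5 of the 6 libraries, piglet 2383 being the one without it.

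**Figure D2:**
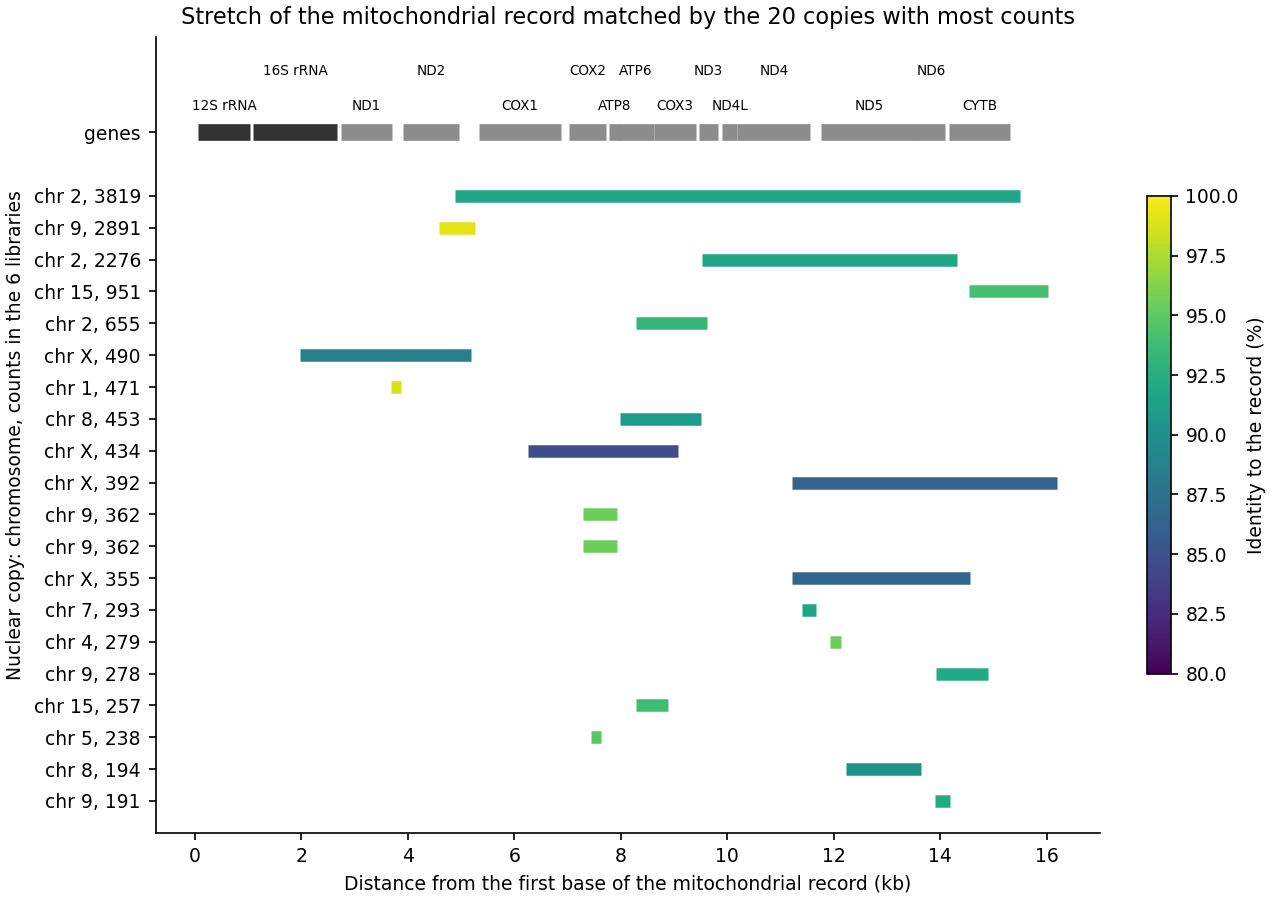
Stretch of the mitochondrial record, in kb from its first base, spanned by each of 20 copies with most counts (labelled by chromosome and count over the 6 libraries) and coloured by identity (%). A chromosome X copy of 221 counts, which matches both ends of the record, was left out and the next copy shown. Bars run from the first to the last matched base and may hold gaps; the top bar shows rRNA genes (dark) and protein genes (grey), with tRNA genes in the spaces. A copy of 3819 counts on chromosome 2 spans most of the record, and the chromosome 9 copy of 2891 counts covers the end of ND2 and tRNA genes after it.

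Copies with the same sequence had the same counts. The chromosome 9 places chr9:111673885-111674587 and chr9:111839453-111840155, both COX2 to ATP8 at 95.49% identity with 16 windows each, were listed with the same values. Each had 41 counts in piglet 524, 120 in piglet 2129, 85 and 79 in the runs of piglet 512, 37 in piglet 2134 and none listed in piglet 2383. The same held across the lists, where 64 nuclear-copy windows shared 32 sequences and the counts were equal in 45 of 45 sets of such windows within a library. Counts of these identical copies are therefore not independent, and single places among them are uncertain. Equality extended to chrM only in part. The chromosome 9 window printed above and the identical stretch of chrM had different counts, given below. Of 95 pairs of a nuclear and a chrM window beginning within 5 bases of each other on the record, 28 had equal counts.

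Nuclear copies had more windows than chrM in 5 of the 6 libraries and a lower summed count in all 6. The 2 AA libraries listed 153 and 280 nuclear-copy windows with 2350 and 5546 counts (piglets 524 and 2129), and 96 and 81 chrM windows with 4641 and 10355 counts. The 2 runs of piglet 512 listed 264 and 247 nuclear-copy windows with 4638 and 4392 counts, and 83 and 85 chrM windows with 8729 and 8404 counts. Piglet 2134 listed 103 nuclear-copy windows with 1478 counts and 98 chrM windows with 3197 counts, and piglet 2383 listed 23 with 265 and 44 with 834. The mean nuclear-copy window had between 11.5 counts (piglet 2383) and 19.8 (piglet 2129), and the mean chrM window between 19.0 (piglet 2383) and 127.8 (piglet 2129). How reads were gathered into windows is not given, so whether a chrM window stands for reads beyond its own 201 bases was not tested.

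The source genes of the nuclear copies were set beside those of chrM. A window was assigned to the gene at its base 110, inside the reads. The tRNA genes held 45.87% ± 11.73 of the nuclear-copy count and 9.03% ± 1.80 of the chrM count (mean and SD, n = 5 piglets). The rRNA genes, which make the RNA of the mitochondrial ribosome, held 6.36% ± 2.04 of the nuclear-copy and 0.54% ± 0.32 of the chrM count. The protein genes held less in the copies, 46.30% ± 10.15 against 67.12% ± 11.37, and so did the control region, 1.48% ± 0.47 against 23.31% ± 10.38. Each of the 4 differences had the same sign in 5 of 5 piglets. An exact two-sided paired permutation test over piglets, added after the values were seen, gave p = 0.0625 for each, which is the smallest 5 piglets allow and does not pass 0.05, and 0.0625 after Benjamini-Hochberg adjustment over 4 comparisons.

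Of the tRNA genes, those between ND2 and COX1 led with 22.79% ± 6.42 of the nuclear-copy count against 3.95% ± 0.83 of the chrM count. By piglet they held 22.1% (524), 16.8% (2129), 16.7% (512), 27.1% (2134) and 31.3% (2383) of the nuclear-copy count. On chrM they held 4.3%, 3.0%, 3.2%, 4.3% and 4.9% in that order, so the ranges did not overlap. Their counts at nuclear copies were above those on chrM too, with 519 against 201 in piglet 524, 929 against 312 in piglet 2129 and 1510 against 540 in piglet 512. The same was true of 400 against 139 in piglet 2134 and 83 against 41 in piglet 2383. Most of these nuclear counts came from the chromosome 9 copy. Its highest window in each library alone had 336 in piglet 524, 638 in 2129, 588 and 560 in the runs of 512, 302 in 2134 and 53 in 2383. Without that window the nuclear counts of these tRNA genes were below those on chrM in every piglet. Identical nuclear windows with equal counts each enter these sums.

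Other tRNA genes held more of the nuclear-copy than of the chrM count as well. Those after CYTB held 9.42% ± 4.28 against 2.58% ± 1.20, those between ND4 and ND5 4.13% ± 2.42 against 0.21% ± 0.33, and those between ND1 and ND2 3.59% ± 1.82 against 0.72% ± 0.14 (SD, n = 5). The tRNA genes between COX2 and ATP8 went the other way, with no nuclear-copy window and 0.57% ± 1.14 on chrM, as did those between COX1 and COX2 (0.10% ± 0.18 against 0.18% ± 0.37). Of the rRNAs, 16S held 4.76% ± 1.35 against 0.39% ± 0.24 and 12S 1.59% ± 0.96 against 0.14% ± 0.12.

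Among protein genes, COX1, a catalytic subunit of cytochrome c oxidase, held 9.78% ± 5.79 of the nuclear-copy and 19.94% ± 3.03 of the chrM count. In piglet 2383, 40 of its 53 nuclear-copy counts came from a single window, chr9:3808329-3808529, listed in that piglet alone, which raised the mean and SD in the copies. ND5, a subunit of complex I, held 6.58% ± 4.14 against 13.59% ± 4.26. COX3 and ND4 were close, at 4.28% ± 2.86 against 4.37% ± 1.59 and 4.48% ± 1.95 against 5.06% ± 1.39, differences below the spread between piglets. ND3 and ND6 had higher means in the nuclear copies, 2.76% ± 2.79 against 1.03% ± 0.42 and 2.56% ± 2.40 against 1.61% ± 0.93, also within that spread.

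**Figure D3:**
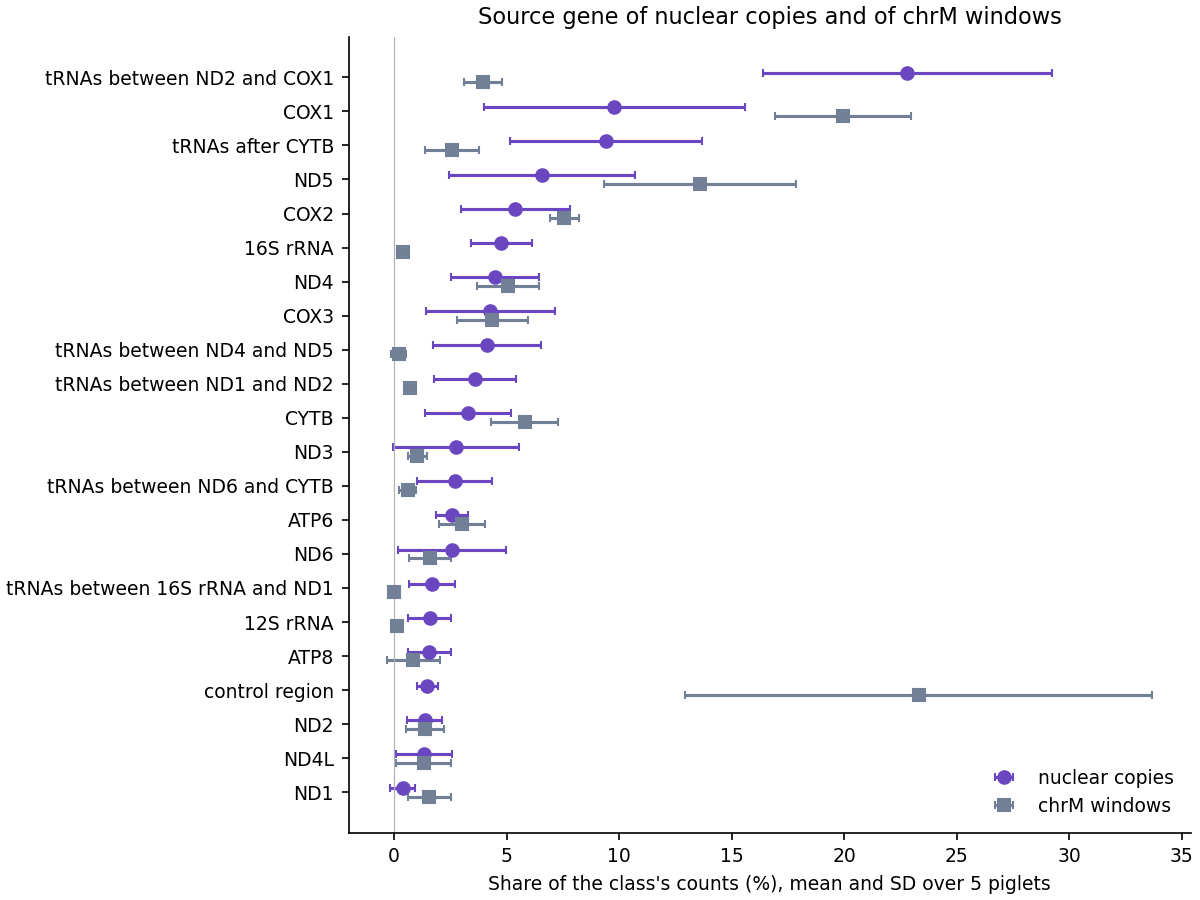
Share of the nuclear-copy count (circles) and of the chrM count (squares) by source gene (%), as mean and SD over 5 piglets, for genes over 1% in either. The tRNA genes between ND2 and COX1 lie at 22.79% in the copies and 3.95% on chrM, and the control region at 1.48% and 23.31%.

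The highest window of the chromosome 9 copy stood above chrM at the same place. It had 336 counts in piglet 524, where the chrM window starting at the same place of the record had 161. In piglet 2129 the pair was 638 and 253, and in the runs of piglet 512 it was 588 and 272, and 560 and 257. In piglet 2134 it was 302 and 70, and in piglet 2383 it was 53 and 25. The nuclear window was thus higher in 6 of 6 libraries, by 2.09 to 2.52 times in 5 of them and 4.31 times in piglet 2134. It also exceeded that chrM window plus the chrM windows beginning within the next 400 bases. The excess was 6 counts in piglet 2383 and 102 to 167 in piglets 524, 2129 and 2134 and run 1 of piglet 512. Run 2 of piglet 512 had 0 such further windows, so its excess of 303 was over the paired chrM window alone. The nuclear window began between 3808069 and 3808092 in the libraries of 524, 2129, 2134 and 2383, and at 3807945 and 3807920 in the runs of piglet 512. Of the 19 pairs that this copy formed with chrM windows, 12 were higher than chrM, 7 were equal, at 5 to 35 counts, and 0 were lower.

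Most other windows did not exceed chrM. A copy running in the record's direction was paired with a chrM window of the same library that began within 5 bases of the place it matched, which 95 of 645 listings allowed. The nuclear count was lower in 49 pairs (51.6%), equal in 28 and higher in 18, of which 12 belonged to the chromosome 9 copy. The median ratio of nuclear to chrM count was 0.857 over all pairs. The share depended on the distance allowed. With chrM windows beginning at the very same base it was 34.8% lower of 66 pairs, and within 20 bases 72.5% of 193. Windows in one library are not replicates, so these are counts without a test.

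**Figure D4:**
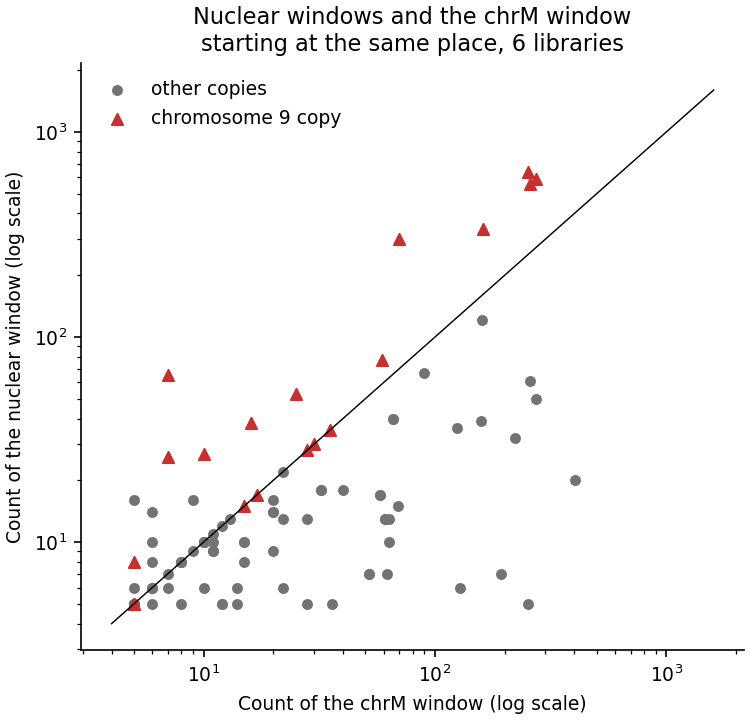
Count of each nuclear-copy window against the count of the chrM window beginning within 5 bases of the place it matches, in the 6 libraries, on log axes. The line marks equal counts; 28 of 95 pairs lie on it, 49 below and 18 above, and triangles show the chromosome 9 copy with 638 against 253 counts at its highest.

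One window next to the chromosome 9 copy, chr9:3808329-3808529, was listed in piglet 2383 alone, with 40 counts, and 116 of its bases matched COX1 in the opposite direction at 100% identity. It is not part of the stretch above, which ran in the record's direction and whose last window ended at 3808292.

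Between genotypes, the share of listed counts in nuclear copies was 4.17% in piglet 524 and 4.36% in piglet 2129 (AA), with 95% Wilson intervals of 4.01 to 4.34% and 4.25 to 4.48%. Among the GG piglets, 512 had 4.85%, 2134 had 0.77% (0.73 to 0.81%) and 2383 had 0.63% (0.55 to 0.71%). The runs of piglet 512 gave 4.82% and 4.88%. The groups overlapped, because piglet 512 was above both AA piglets while 2134 and 2383 were far below them. The means were 4.27% ± 0.14 in AA and 2.08% ± 2.40 in GG (SD, n = 2 and 3). The difference of -2.19 percentage points had p = 0.4 in an exact two-sided permutation test over 10 splits of the piglets, which cannot go below 0.1. Intervals cover counting error only, and they do not account for windows with the same sequence and count.

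Counts on chrM moved with the nuclear copies. They made up 8.24% and 8.15% of the listed counts in the AA piglets, 9.07% and 9.34% in the runs of piglet 512, and 1.66% and 1.97% in piglets 2134 and 2383. The ratio of nuclear-copy to chrM count was 0.506 and 0.536 in AA, and 0.527 (512), 0.462 (2134) and 0.318 (2383) in GG. It ranged less than the shares did. On the log2 scale the GG mean minus the AA mean was -0.29 (AA -0.94 ± 0.06, GG -1.23 ± 0.38), with p = 0.5 in the exact two-sided permutation test. The sign depended on how low counts were treated: with windows kept only above 0.6% of the library's chrM count, the level at which 5 counts stand in piglet 2383, it was +0.29 (0.285, exact permutation p = 0.5). That rule, chosen after the values were seen, gave ratios of 0.214 and 0.180 in AA, and 0.243 and 0.318 in piglets 2134 and 2383, with 0.176 and 0.177 in the runs of piglet 512.

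**Figure D5:**
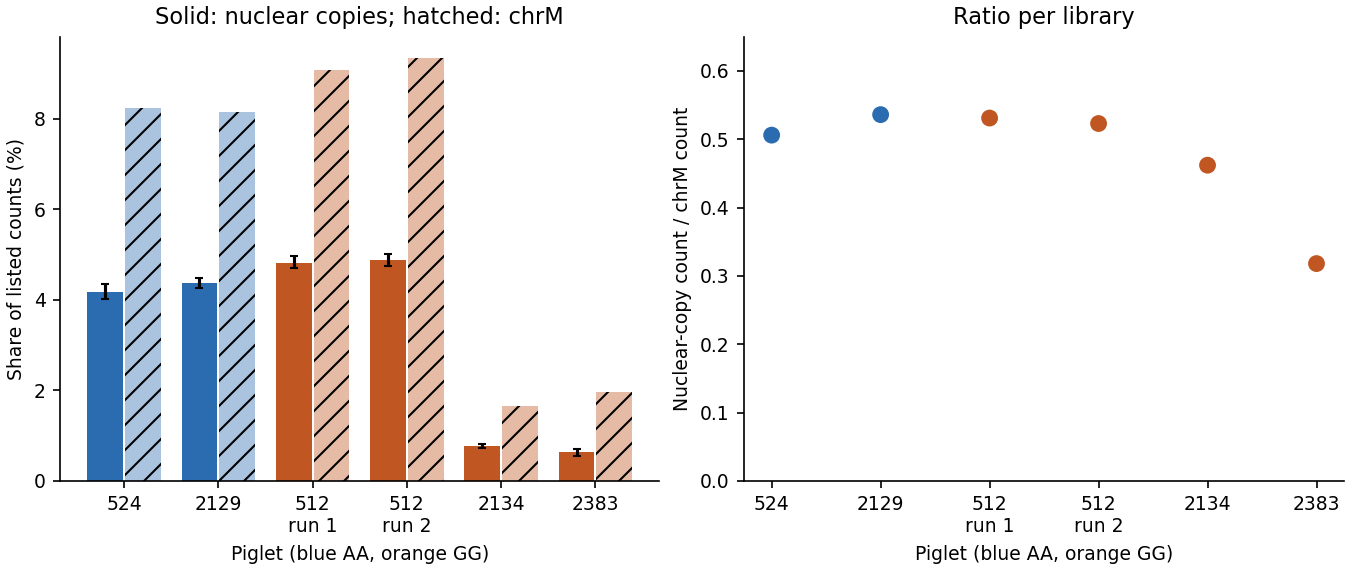
Left, share of listed counts (%) in nuclear copies (solid, with 95% Wilson intervals) and in chrM windows (hatched) in each library; right, ratio of the nuclear-copy to the chrM count. Piglets 2134 and 2383 have shares under 1% in nuclear copies, against 4.17% to 4.88% in the other 4 libraries, while 5 of the 6 ratios lie between 0.462 and 0.536.

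Within the sib pairs the share went opposite ways. It was higher by 0.677 percentage points in piglet 512 than in its AA sib 524, and lower in piglet 2134 than in its AA sib 2129, by -3.598 points.

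Of the 145 nuclear-copy regions, 86 had at least 10 counts in at least 2 piglets and were tested together with all other regions of the lists by limma on log2(scaled count + 1). Each of the 86 reached that minimum in at least 1 piglet of both groups. None of them passed an adjusted p of 0.05, and 0% of all 2778 regions tested did. At an unadjusted p under 0.05, 2 of the 86 were lower in GG and 0 higher, where 2.05% of all regions were lower and 6.62% higher. The members' share is thus near the background. The fitted log2 difference was below 0 in 86 of 86 regions, from -2.95 to -0.06 with a median of -1.12, against a median of 0.20 and 1153 of 2778 below 0 over all regions. The 7 chrM regions tested had a median of -1.31. In 5 of the 86 every GG piglet lay below both AA piglets, where 13.1% of all regions did.

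Piglets 2134 and 2383 were the lowest of the 5 in 72 of the 86 regions, where 15.3% of all regions had that order. Piglet 512 was above both AA piglets in 34, between them in 47 and below both in 5. Regions not listed were given 2 counts, which touched 69 of the 86 in piglet 2383, 33 in 2134 and 11 in 524. The order in the 72 regions thus rests in part on that assumed value. All 86 were listed in piglets 2129 and 512, while regions in general could pass the minimum in any 2 piglets. Neither the 15.3% here nor the 13.1% for the order by group is therefore a like comparison, and no conclusion is drawn from them. Without piglet 512, 39 of 59 regions tested had an unadjusted p under 0.05, all lower in GG, where 5.98% of all regions did; none passed the adjusted threshold by limma there either. With scaling by total counts alone, 6 of 86 passed the adjusted threshold, all lower in GG, where 0.54% of all regions were called lower. With no filter on low counts, 12 of 145 passed, all lower, where 0.077% of all regions were called lower.

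The chromosome 9 copy was the highest region. Its listed counts were 431 in piglet 524 and 778 in piglet 2129, then 660 and 631 in the runs of piglet 512, 325 in piglet 2134 and 66 in piglet 2383. After scaling, piglets 2134 and 2383 were low at 288.2 and 102.9 and piglet 512, at 732.2, lay between the AA piglets at 567.4 and 753.7. The log2 difference of -1.22 (SE 0.77) had an adjusted p of 0.535 by limma.

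Regions of tRNA genes were among the other high ones. The region chr15:119267712-119268765, CYTB and the tRNA genes after it at 93.62% identity, had scaled counts of 144.8 (524), 233.5 (2129), 256.9 (512), 83.36 (2134) and 37.42 (2383). The region chr2:104179100-104179623, of the same genes in the long chromosome 2 copy, had 88.2, 137.6, 153.1, 59.42 and 28.06 in the same order. Piglet 512 was the highest of the 5 in both, and the groups overlapped. The chromosome 1 region chr1:94518836-94519193, the tRNA genes between ND1 and ND2 at 98.68% identity, had 100.1, 124.0, 116.3, 39.02 and 28.06, so that piglet 512 lay between the AA piglets. Its log2 difference was -1.13 (SE 0.59, adjusted p 0.532 by limma).

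The chromosome X region chrX:20898458-20898898, the tRNA gene before ND1 and ND1 itself, matched the record least well of the regions listed in every piglet. It was listed with 30 counts in piglet 524, 46 in 2129, 41 in each run of 512, 28 in 2134 and 9 in 2383, and its log2 difference was -0.70 (SE 0.50, adjusted p 0.575 by limma). No chrM window was assigned to the tRNA gene between 16S rRNA and ND1 in any library.

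The lowest fitted value among the 86 belonged to protein genes. The region chr2:83325114-83327402, from ND5 to CYTB, had 89 listed counts in piglet 524, 248 in 2129, 213 and 172 in the runs of 512 and 12 in 2134, and was not listed in 2383. Its log2 difference of -2.95 (SE 1.56) rests in part on the 2 counts assumed in piglet 2383 and in part on the 12 listed in 2134. The adjusted p of that region was 0.532 by limma. The neighbouring region chr2:83327481-83328666, ND4 to ND5, had 112 in piglet 524, 229 in 2129, 231 and 216 in the runs of 512, 74 in 2134 and none listed in 2383. The COX1 and COX2 region chr2:104170593-104171720 had 65, 196, 127, 124, 60 and 10 in the same order. In all 3, piglet 512 lay between or above the AA piglets.

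The 2 regions with an unadjusted p under 0.05 were low ones. The region chr2:104173456-104173657, the tRNA gene between COX3 and ND3, had 16 counts in piglet 524, 22 in 2129 and 8 and 6 in the runs of 512, and was not listed in 2134 or 2383. The region chr4:55841251-55841780, 12S rRNA at 96.79% identity, had 20 in piglet 524, 34 in 2129, 12 and 15 in the runs of 512, 7 in 2134 and none listed in 2383. Their groups did not overlap after scaling, and their limma log2 differences were -2.25 (SE 0.62, unadjusted p 0.00958, adjusted 0.532) and -1.96 (SE 0.63, unadjusted p 0.0187, adjusted 0.532). The regions chr15:125170757-125170958 (tRNA genes after CYTB) and chr16:74685820-74686022 (ND5) also lay lower in every GG piglet, with unadjusted p of 0.0561 and 0.0670 and adjusted 0.532 by limma.

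The control region was thinly represented among the copies. Its longest matches were 208 bases at chr1:165517625-165517827 and 206 at chrX:21036776-21037044, with identities of 82.21% and 84.05%. The first had 5 counts in piglet 524, 11 in 2129 and 7 and 9 in the runs of 512, and the second 9 in piglet 2129 and 5 in run 1 of 512, too few to be tested. Neither was listed in piglet 2134 or 2383. These 2 were not typical of the 22 control-region windows in 9 regions, whose median identity was 93.03%. The region chr8:9581885-9582178, at 91.47% identity, was listed in every library. It had 20 counts in piglet 524, 36 in 2129, 29 and 26 in the runs of 512, 13 in 2134 and 5 in 2383. Its log2 difference was -1.04 (SE 0.59, adjusted p 0.532 by limma).

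Of the 145 regions, 16 were listed in all 5 piglets, 37 in 4, 31 in 3, 33 in 2 and 28 in 1. By piglet, 84 were listed in 524, 132 in 2129, 124 in 512, 57 in 2134 and 18 in 2383, and 12 in neither AA piglet. The runs of piglet 512 shared 107 regions, with 12 in run 1 alone and 5 in run 2 alone, none of these above 10 counts. Of 49 regions with at least 20 counts in each run, 48 were within 1.5-fold between runs.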

How the data were processed

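The authors deposited whole-number counts, 1 per window, together with its position and bases, per the file headers. How reads were aligned, filtered and gathered into windows, and on which genome build, is not given in the sources used here. The lists omit counts under 5, and nuclear-copy windows of one sequence carried equal counts within a library. Members and lists were chosen with earlier results of these data known.

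Nuclear copies were found with BLAST 2.17.0 (Python 3.11.15, Biopython 1.88). Mitochondrial protein genes were read as open reading frames in the whole record and named by the order and lengths of the RefSeq Sscrofa11.1 table, with rRNAs laid out from its lengths and tRNA genes named by their neighbours. Overlapping windows were merged into regions. The runs of piglet 512 were summed. Counts were scaled by TMM, trimming 30% of ratios and 5% of abundances. The resulting size factors were 0.760 (524), 1.03 (2129), 1.76 (512), 1.13 (2134) and 0.641 (2383). A region not listed in a piglet was given 2 counts, and regions with at least 10 counts in at least 2 piglets were tested. The test was limma 3.58.1 (R 4.3.3) with a trend on log2(scaled count + 1), over all regions, with Benjamini-Hochberg adjustment. It was tested on simulated data in which all GG piglets changed alike. The GG piglets here did not, so that run does not show how the test performs on these lists. The added count shrinks the differences of low regions. Shares and ratios were compared by exact two-sided permutation over piglets. Each group's piglets are separate animals.

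Named are the 8 regions with the highest mean, the 4 with the smallest p in each direction, any past the adjusted threshold (there were none), the 3 longest matches and the 3 of lowest identity listed in every piglet. None of the 86 tested had a fitted value above 0, so the direction higher in GG gave no name. The sib pairs come from the labels. Alternatives were the scaling, the value for unlisted regions, the filter, the pseudocount, the identity and length minimums, each run alone, each piglet left out and the sib pair as a block. The sequence of 1 further window is not reported here.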

Additional observations from a re-analysis of the deposited data

Results flagged for a closer look

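The genotype difference went opposite ways in the 2 sib pairs. The share of listed counts in nuclear copies, GG minus AA, was +0.677 percentage points between piglets 512 and 524 and -3.598 between piglets 2134 and 2129. The log2 ratio of nuclear-copy to chrM count differed by +0.058 and -0.212 in the same pairs. Each pair is 1 GG and 1 AA piglet, and the difference between the pairs was not tested.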

How the results depend on the processing

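The share of listed counts kept its direction under every alternative tried, from -3.57 to -1.46 percentage points when 1 piglet was left out, the lowest without piglet 512, and so did the median log2 difference of the regions tested, from -2.15 (without piglet 512) to -0.55 (without piglet 2383). The log2 ratio to chrM ranged from -0.44 to -0.08 with 1 piglet left out, and turned to 0.285 with the 1 minimum relative to the chrM count, where each library keeps a different number of windows. Against 0 nuclear-copy regions called by limma in the reported analysis (2 with an unadjusted p under 0.05), 6 were called with scaling by total counts alone and 12 of 145 with no filter on low counts, and the cause was not tested. Over all regions, 47 and 88 were called under these settings. Scaling by total counts moved the median of all regions from 0.20 to 0.07. The share of paired windows lower than chrM was 34.8% with the same start and 72.5% within 20 bases, against 51.6%; the cause was not tested. Of 204 values of named regions under the alternatives, 199 kept their direction and side of the threshold and 5 passed it. With the sib pair as a replicate block and piglet 2383 left out, the share was -1.46 points, the log2 ratio -0.08, the median log2 difference -0.55 and the calls 0 of 86, while 64 of 2738 regions in all were called, all higher in GG. The planned count model of edgeR was not run, because the lists leave out low counts. Lists that start at 5 counts limit the low regions, mostly in piglet 2383.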
